A study of Zea mays subsp. mexicana with 6 samples.

Results

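The expression of 3 unigenes for leucine zipper transcription factors was followed in teosinte seedlings under cold and drought: c59299_g1 and c61581_g3, annotated as bZIP proteins, and c60754_g2, annotated as a homeobox-leucine zipper protein. They were taken, of 184280 unigenes in the deposited table, because the study names them as members of these families. Seedlings of *Zea mays* ssp. *mexicana*, variety 8493, were grown at 25°C under 10 h of light and 14 h of dark, and all were 13 days old when they were treated. The cold group was held at 4°C for 12 h, the drought group was kept for 3 h with Hoagland solution that held 20% PEG2000, and the control group received no stress. Each group had 2 libraries, and each sample pooled roots, stems and leaves of several seedlings. PEG2000 draws water osmotically, so drought here is a short osmotic stress. Cold and drought also differed in duration, so that stress and duration cannot be told apart where the 2 treatments are compared.

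Proteins of the bZIP family bind DNA through a basic region and pair with each other through an adjoining leucine zipper. Many plant bZIP proteins recognise elements with an ACGT core, among them the G-box and the abscisic acid response element, and some of them act downstream of abscisic acid, a hormone of the response to water deficit. Homeobox-leucine zipper (HD-Zip) proteins join a homeodomain, which contacts DNA, to a leucine zipper, through which they pair. In Arabidopsis, ATHB-6 is a class I HD-Zip protein that interacts with the protein phosphatase 2C ABI1 and acts as a negative regulator of abscisic acid responses.

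Expression was given as FPKM (fragments per kilobase of unigene, scaled to all mapped fragments of a library) for each unigene, which is a gene of the de novo assembly and may be a fragment, an allele or a copy of a locus. Such a unigene has no position in a genome here. The values were analysed as log2(FPKM + 1), and fold changes on this scale understate the change of unigenes at low FPKM. A unigene was called changed when its absolute log2 fold change was at least 2 and its Benjamini-Hochberg adjusted p in limma was under 0.005, over 38768 unigenes whose FPKM averaged at least 1. All 3 unigenes passed this filter, c60754_g2 only through the drought libraries. The study had selected them with these same libraries in view, so the tests below are not independent evidence for them. Cold and drought were each set against the same control libraries.

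The file held no read counts. A rough estimate of mapped depth from the ratios of low FPKM values put the other libraries at 0.831 to 0.966 times control-2. Its order departs from the clean read totals that the study gives. The estimate put control-1 at 0.874 times control-2, and cold-2 (0.928) below cold-1 (0.956). The clean read totals are instead higher for control-1 than for control-2, and for cold-2 than for cold-1. Clean reads are counted before mapping, and the estimate is not relied on below. Between replicates, Pearson's r of log2(FPKM + 1) was 0.950 in the cold, 0.951 in the drought and 0.956 in the control group. Over all tested unigenes, the median log2 fold change against the control was -0.18 for cold and 0.01 for drought. Transcripts annotated to leaf and to root functions were found in every library. The 7 unigenes annotated as chlorophyll a/b-binding proteins had a summed FPKM of 8221 and 10133 in the cold, of 5746 and 5569 in the drought, and 9076 and 8791 in the control libraries. The 8 unigenes annotated as high affinity nitrate transporters or root cap proteins summed to 51.5 and 86.5 in the cold, 30.3 and 52.7 in the drought, and 32.6 and 67.6 in the control libraries. The leaf sum was thus lower in both drought libraries than in the others, and its part in the results below was not tested. In pooled organs, fewer cells of a type and less RNA per cell cannot be told apart.

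The annotation sets a limit on what each name means. Of c59299_g1, some transcripts matched the maize bZIP transcription factor1 and, in Arabidopsis, G-box binding factor 3, a bZIP protein that binds the G-box, while 2 transcripts matched a receptor-like kinase, BAM3, so that the unigene may join transcripts of more than 1 gene. The maize match of c61581_g3 was a putative bZIP superfamily protein, but its Arabidopsis match was a basic helix-loop-helix protein, another family of DNA-binding proteins. For c60754_g2 the match was ATHB-6. The primers that the study designed for qRT-PCR of c60754_g2 are shown because they mark the stretch of the unigene by which it can be amplified again. They are written 5′ to 3′.
forward: acgtgtggtggattcatggt
reverse: tctgtttcccgtcgatccct
Both primers are 20 bases long, with a G and C content of 50% in the forward and 55% in the reverse primer.

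In the cold, c59299_g1 rose and the other 2 unigenes were not called. In the drought, c59299_g1 and c60754_g2 rose. The number called was thus 1 of 3 in cold against control, where 3.28% of all tested unigenes were called (2.16% higher and 1.11% lower), and 2 of 3 in drought against control, where 0.784% were called (0.725% higher and 0.0593% lower). In cold against drought, c60754_g2 was the 1 unigene of 3 that was called, and it was lower in the cold, with 3.68% of all tested unigenes called, 1.87% as lower and 1.81% as higher in the cold.

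**Figure D1:**
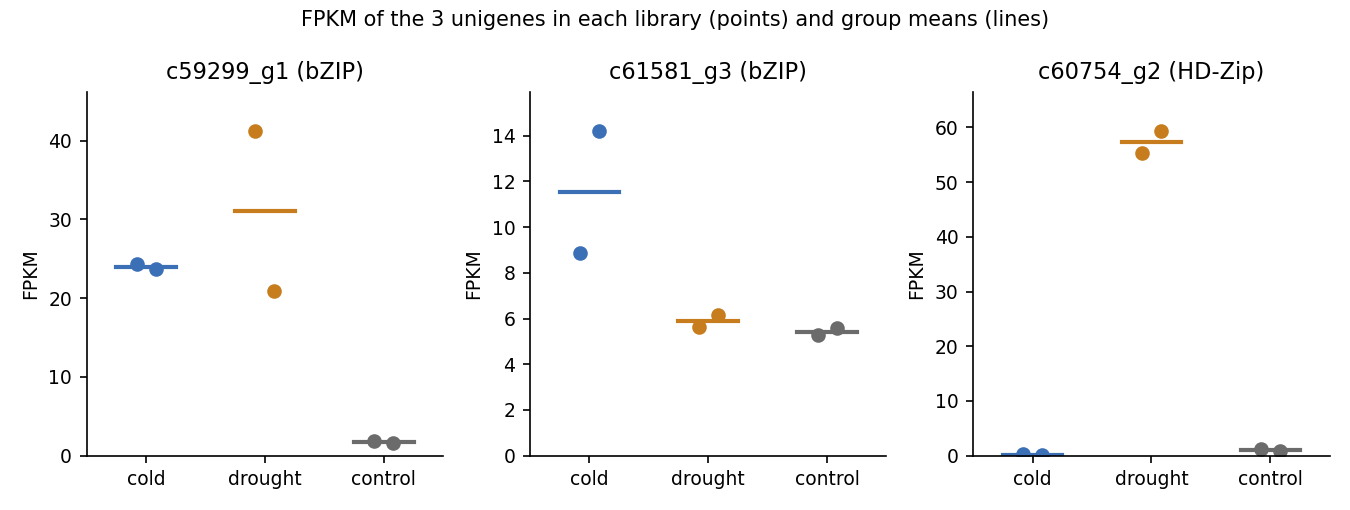
FPKM of c59299_g1, c61581_g3 and c60754_g2 on linear axes that differ between panels. Points are libraries and lines are means of 2 libraries, with the cold, drought and control groups from left to right. c59299_g1 is high in all 4 stressed libraries and c60754_g2 in the 2 drought libraries (55.3 and 59.3).

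The bZIP unigene c59299_g1 rose under both stresses. Its FPKM was 24.39 and 23.66 in the cold libraries, 41.24 and 20.95 in the drought libraries, and 1.90 and 1.62 in the control libraries. All 4 stressed libraries lay above both control libraries, as both libraries of a stress did for 28.1% of all tested unigenes in the cold and 27.8% in the drought, while the cold values lay between the 2 drought values. The cold libraries differed from each other 1.03-fold and the drought libraries 1.97-fold, so the cold level was the more closely repeated.

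In cold against control, the mean FPKM of c59299_g1 was 24.0 ± 0.516 in the cold and 1.76 ± 0.198 in the control (SD, n = 2 libraries each), a 13.7-fold ratio. On the log2(FPKM + 1) scale the fold change was 3.18 (standard error 0.30, 95% interval 2.43 to 3.93, adjusted p = 0.00173 in limma). Relative to the median of all tested unigenes it was 3.36. Of all tested unigenes, 0.537% had a higher log2 fold change in the cold. When a single library was left out, the log2 fold change stayed between 3.11 and 3.26, but the adjusted p ranged from 0.00418 to 0.0226, and only without drought replicate 1 was the unigene still called. In the other 5 omissions no unigene of the whole table was called in this comparison, so the loss is not particular to c59299_g1. Testing all unigenes without the filter on FPKM also ended the call (adjusted p = 0.0199 in limma), as it did for every unigene of the table in this comparison.

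In drought against control, the mean FPKM of c59299_g1 was 31.1 ± 14.3 in the drought and 1.76 ± 0.198 in the control (SD, n = 2 libraries each), a 17.7-fold ratio. On the log2(FPKM + 1) scale the fold change was 3.47 (standard error 0.30, 95% interval 2.72 to 4.21, adjusted p = 0.00351 in limma). The call was lost with median-of-ratios scaling (3.43, adjusted p = 0.00526) and when the cold libraries were left out of the fit (adjusted p = 0.0127). It was also lost without the filter (adjusted p = 0.0490), where no unigene of the whole table was called in this comparison. On omission of any of the 6 libraries no unigene of the whole table was called in this comparison, and c59299_g1 then had log2 fold changes from 2.99 to 3.94 and an adjusted p from 0.0192 to 0.0384.

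The cold and drought levels of c59299_g1 were not separated by the test. Cold against drought gave a log2 fold change of -0.28 with a 95% interval from -1.03 to 0.47 (adjusted p = 0.496), so that a difference of up to 1.03 log2 units toward the drought lies within the interval. Without drought replicate 1, the drought library at 41.24, the difference turned to 0.19 in favour of the cold, and without drought replicate 2 it was -0.76 (adjusted p = 0.0459).

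The second bZIP unigene, c61581_g3, stood at a moderate level in every library and did not pass the thresholds in any comparison. Its FPKM was 8.87 and 14.21 in the cold libraries, 5.62 and 6.15 in the drought libraries, and 5.28 and 5.57 in the control libraries. Both cold libraries lay above all others (27.2% of all tested unigenes lay higher in both cold than in both drought libraries), but they differed from each other 1.60-fold, while the drought and control libraries covered a narrow range. The higher of the 2 cold libraries, cold-2, also had the highest sums of both the leaf-annotated (10133) and the root-annotated unigenes (86.5), whose part in this value was not tested. The root sum was carried by 1 unigene, c47350_g2 (29.77 in cold-1 and 75.69 in cold-2), while c47350_g3 was lower in cold-2 (5.10) than in cold-1 (15.99).

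In cold against control, c61581_g3 had a mean FPKM of 11.5 ± 3.78 in the cold and 5.43 ± 0.205 in the control (SD, n = 2 libraries each). On the log2 scale the difference was 0.93 (standard error 0.23, 95% interval 0.36 to 1.50), and its adjusted p of 0.0263 in limma missed the threshold, as did its size. The study, which tested read counts, reports c61581_g3 as up-regulated by cold, so the result here departs from it. The reason for the difference was not tested. Of all tested unigenes, 14.8% were higher in the cold by an adjusted p under 0.05 whatever the fold. In cold against drought the log2 fold change was 0.83 (95% interval 0.26 to 1.41, adjusted p = 0.0363). In drought against control it was 0.10, with a 95% interval from -0.47 to 0.67 (adjusted p = 0.861), although both drought libraries lay just above both control libraries, within the share of 27.8% given above.

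The HD-Zip unigene c60754_g2 was abundant in the drought libraries and near 0 in the cold libraries. Its FPKM was 0.22 and 0.17 in the cold libraries, 55.32 and 59.34 in the drought libraries, and 1.21 and 0.86 in the control libraries. No 2 groups overlapped, and the cold libraries held the lowest values. Both drought libraries lay above both control libraries, as for 27.8% of all tested unigenes. The tested unigenes with a lower FPKM than c60754_g2 made up 4.20% and 4.28% of all tested in the cold libraries, 91.4% and 91.9% in the drought libraries, and 15.5% and 10.3% in the control libraries.

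In drought against control, the mean FPKM of c60754_g2 was 57.3 ± 2.84 in the drought and 1.04 ± 0.247 in the control (SD, n = 2 libraries each), a 55.4-fold ratio. On the log2(FPKM + 1) scale the fold change was 4.85 (standard error 0.18, 95% interval 4.39 to 5.30, adjusted p = 0.000389 in limma), rank 36 from the highest of the 38768 tested. The unigene passed the filter on FPKM only through these drought libraries, so neither this test nor the rank is independent of its high drought level. The drought libraries differed from each other only 1.07-fold. On omission of 1 library, the log2 fold change lay between 4.72 and 4.97 and the adjusted p between 0.00575 and 0.0240, above 0.005 in all 6 cases, as for every other unigene past the fold threshold. Without the filter the adjusted p was 0.00669 in limma, and no unigene of the whole table was called in this comparison.

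In cold against control, c60754_g2 was lower in both cold libraries but was not called. It had passed the filter on FPKM only through the drought libraries, and in a fit of the cold and control libraries alone it was not tested. The mean FPKM was 0.195 ± 0.0354 in the cold and 1.04 ± 0.247 in the control (SD, n = 2 libraries each), a control level 5.31 times that of the cold. On the log2(FPKM + 1) scale the difference was -0.76 (standard error 0.18, 95% interval -1.22 to -0.31, adjusted p = 0.0242 in limma). With a pseudocount of 0.1, which weighs such low values more, it was -1.93 (adjusted p = 0.00713), still short of both thresholds. At 2 decimals and without read counts, the depth behind FPKM values near 0.2 is unknown. Of all tested unigenes, 43.8% had both cold libraries below both control libraries, and 43.9% had them below both drought libraries.

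Between the 2 stresses, c60754_g2 was lower in the cold. Its log2 fold change in cold against drought was -5.61 (standard error 0.18, 95% interval -6.06 to -5.15, adjusted p = 0.00016 in limma), and the mean FPKM in the drought was 294 times that in the cold. This contrast is also the test of the difference between its responses to cold and to drought, since both are taken from the same control. As c60754_g2 was tested only because of its drought level, the contrast is not independent of the filter. The call was kept without either control library. When a cold or a drought library was left out, no unigene of the whole table was called in this comparison, and over all 6 omissions c60754_g2 had log2 fold changes from -5.66 to -5.56 and an adjusted p of up to 0.0115.

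**Figure D2:**
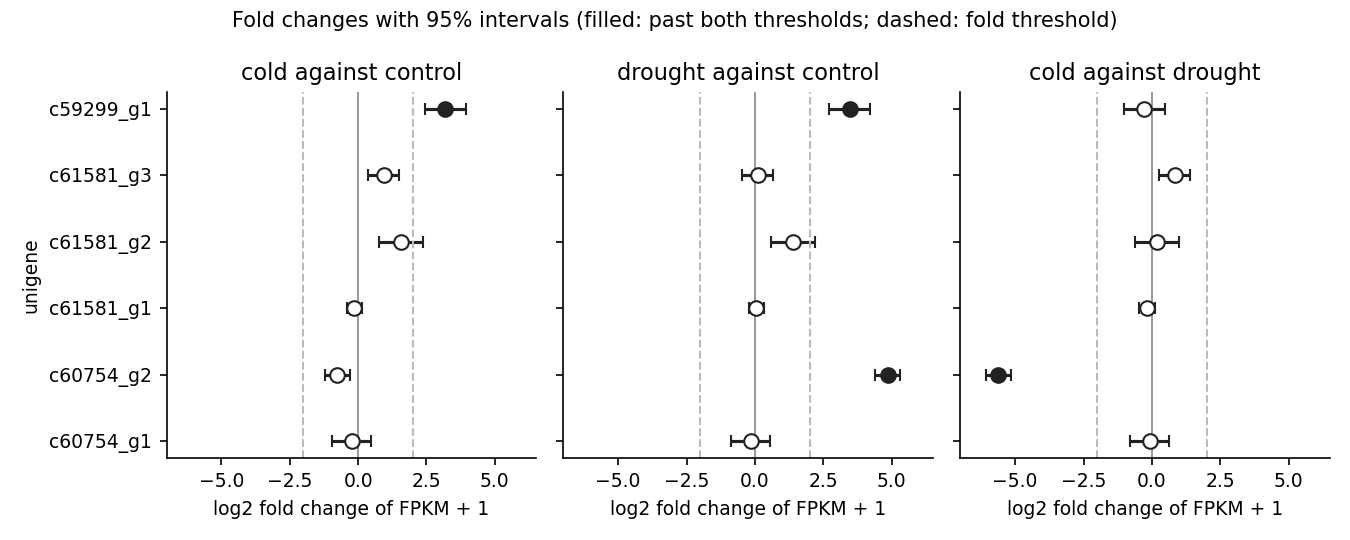
Log2 fold changes of FPKM + 1 from limma with 95% intervals, for c59299_g1, c61581_g3, c60754_g2 and the other unigenes of their assembly components, in cold against control, drought against control and cold against drought. Filled points passed both thresholds and dashed lines stand at the fold threshold of 2. The filled points are c59299_g1 in both stresses (3.18 and 3.47) and c60754_g2 in the drought (4.85) and in cold against drought (-5.61).

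The order of the 3 unigenes by FPKM differed between the groups. FPKM is per length of unigene, so levels can be set side by side within a library. In the cold, c59299_g1 was the highest, at 2.75 and 1.67 times the FPKM of c61581_g3, and c60754_g2 was near 0. In the drought, c60754_g2 was the highest, at 1.34 and 2.83 times the FPKM of c59299_g1. In the control, c61581_g3 was the highest and held 62.9% and 69.2% of the summed FPKM of the 3, against 22.6% and 20.1% for c59299_g1.

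Unigenes of the same assembly component share sequence, and RSEM can divide reads between them. The unigene c59299_g1 was the only one of its component. The component of c61581_g3 holds c61581_g1 and c61581_g2. Of these, c61581_g1 had an FPKM of 27.15 and 24.67 in the cold, 28.30 and 30.92 in the drought, and 29.32 and 27.86 in the control libraries, with log2 fold changes of -0.14 and 0.05 against the control. It was thus near-level while c61581_g3 was higher in the cold.

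The other relative, c61581_g2, matches maize loci of which RefSeq lists 1 under a MYB-related synonym. Its FPKM was 7.74 and 5.12 in the cold, 7.25 and 3.89 in the drought, and 1.22 and 1.67 in the control libraries. All 4 stressed libraries lay above both control libraries, but the log2 fold changes of 1.59 for cold (adjusted p = 0.0147) and 1.38 for drought (adjusted p = 0.0607) were not called. The share of c61581_g3 in the FPKM of its component was 20.3% and 32.3% in the cold, 13.7% and 15.0% in the drought, and 14.7% and 15.9% in the control libraries.

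The component of c60754_g2 holds one other unigene, c60754_g1. Its FPKM was 2.31 and 1.91 in the cold, 1.78 and 2.89 in the drought, and 3.30 and 2.10 in the control libraries, and it was not called in any comparison. Of the component's FPKM, c60754_g2 made up 8.70% and 8.17% in the cold, 96.9% and 95.4% in the drought, and 26.8% and 29.1% in the control libraries. The summed FPKM of the component was 2.53 and 2.08 in the cold, 57.10 and 62.23 in the drought, and 4.51 and 2.96 in the control libraries.

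**Figure D3:**
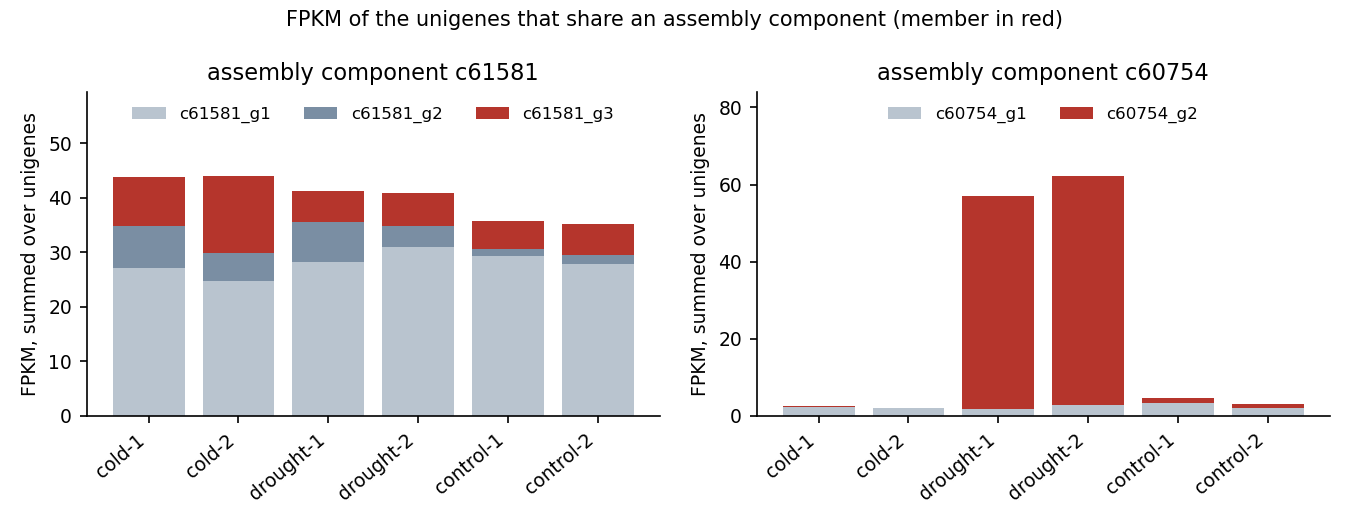
Stacked FPKM of the unigenes of assembly components c61581 and c60754 in each library, cold, drought and control from left to right, with c61581_g3 and c60754_g2 in red. In c60754 nearly all signal of the drought libraries is c60754_g2 (96.9% and 95.4%), and in c61581 the red share is largest in cold-2 (32.3%).

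Other unigenes of these families were taken from the annotation sheets used here, which cover a part of the assembly. Of 7 further bZIP unigenes, 5 were tested. None was called in cold against control (3.28% of all tested unigenes), drought against control (0.784%) or cold against drought (3.68%). Against the control their median log2 fold change was -0.07 for cold and -0.04 for drought, beside -0.18 and 0.01 over all tested unigenes. By an adjusted p under 0.05 whatever the fold, 1 was higher in the cold, beside 14.8% of all tested unigenes, and 1 in the drought, beside 5.69%. At an unadjusted p under 0.05 in limma, 1 was higher and 1 lower in the cold, 1 higher and 2 lower in the drought, and 2 higher and 1 lower in cold against drought. No share over all tested unigenes is given for these unadjusted counts.

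Among these, c57946_g1, annotated as an abscisic acid-insensitive 5-like protein, a class of bZIP protein that binds the abscisic acid response element, had the largest log2 fold changes. Its FPKM was 4.53 and 4.18 in the cold, 17.85 and 14.38 in the drought, and 6.19 and 8.28 in the control libraries, and no 2 groups overlapped. Of all tested unigenes, 43.8% had both cold libraries below both control libraries, and 43.9% had them below both drought libraries. Both drought libraries lay above both control libraries for 27.8%. The unigene c57946_g1 reached 1.06 log2 units for drought (adjusted p = 0.0287 in limma), -0.61 for cold (adjusted p = 0.0540) and -1.67 for cold against drought (adjusted p = 0.00263, with the size short of 2). The order of the groups was that of c60754_g2, at a much smaller spread. Another unigene of such annotation, c54084_g1 (abscisic acid response element binding factor), had its highest mean FPKM in the cold. It comes from the study's table of cold-responsive unigenes, chosen on these libraries, and was named after its values were seen. Its FPKM was 8.66 and 5.73 in the cold, 4.77 and 1.42 in the drought, and 1.99 and 1.59 in the control libraries. For cold its log2 fold change was 1.53 (adjusted p = 0.0398 in limma), not called. The TGA1 unigene c53963_g2 had a log2 fold change of 0.51 in the cold (adjusted p = 0.0282), with 25.33 and 22.08 in the cold against 16.58 and 15.95 in the control libraries. In the drought, the liguleless2 unigene c63197_g1, whose maize gene acts at the blade-sheath boundary of the leaf, had 4.17 and 6.52 against 8.75 and 8.85 in the control (-0.65, adjusted p = 0.136).

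Of 15 further HD-Zip unigenes, 10 were tested. In the cold 1 rose and none fell, beside 2.16% and 1.11% of all tested unigenes. In the drought none was called in either direction, beside 0.725% higher and 0.0593% lower. Their median log2 fold change was 0.65 for cold, above the median of all tested unigenes (-0.18), and -0.07 for drought. By an adjusted p under 0.05 whatever the fold, 6 were higher and 1 lower in the cold, beside 14.8% and 22.4% of all tested unigenes, and none passed in the drought, where 1 was higher at an unadjusted p under 0.05 in limma. Of the 6 that were higher in the cold, 3 (c51758_g1, c51758_g2 and c51758_g3) belong to 1 assembly component with 1 annotation, so the count and the median may in part repeat 1 gene.

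The HD-Zip unigene that rose was c50198_g3, a class I member annotated as homeobox protein 40. Its FPKM was 29.97 and 18.88 in the cold, 8.26 and 6.00 in the drought, and 4.03 and 4.45 in the control libraries. For cold its log2 fold change was 2.24, at a standard error of 0.26 (adjusted p = 0.00276), for drought it was 0.62 (adjusted p = 0.232), while that of cold against drought, 1.62 (adjusted p = 0.00645), was not called. Its cold libraries were its highest, where those of c60754_g2 were its lowest. A second unigene of that component, c50198_g1, had 2.85 and 4.31 in the drought against 2.37 and 1.82 in the control libraries (0.55, adjusted p = 0.466).

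In cold against drought no HD-Zip unigene of this list was called, beside 1.81% of all tested unigenes called higher and 1.87% lower. By an adjusted p under 0.05, 5 were higher and 1 lower, beside 14.2% and 23.8% of all tested unigenes (6 and 1 at an unadjusted p under 0.05 in limma). The lower one was the class IV unigene c38595_g1, annotated as outer cell layer5a, from a class known for its activity in the epidermis. Its FPKM was 2.54 and 2.61 in the cold, 13.70 and 7.96 in the drought, and 12.82 and 8.50 in the control libraries. Cold differed by -1.68 log2 units from the drought (adjusted p = 0.00898) and by -1.68 from the control (adjusted p = 0.00944), short of both thresholds.

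As a further list, 6 unigenes annotated to either family were taken from the study's table of cold-responsive unigenes, which was chosen on these libraries and is not independent evidence of a direction. All 6 were tested, and 4 rose in the cold, beside 2.16% of all tested unigenes. Of these 4, 2 were also called higher in cold against drought, beside 1.81% of all tested unigenes. In the drought none of the 6 was called, beside 0.725% of all tested unigenes called higher and 0.0593% lower. At an unadjusted p under 0.05 in limma, 2 were higher in the drought, for which no share over all tested unigenes is given. The median over the 6 was 2.23 log2 units for cold and 0.52 for drought.

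Besides c50198_g3, which stands in both lists, the risers in that table were c50198_g4, c62787_g1 and c54255_g2. The class I unigene c50198_g4 had an FPKM of 16.76 and 12.67 in the cold, against 1.58 and 2.96 in the control libraries (2.29, adjusted p = 0.00264). The unigene c62787_g1, annotated as a class III HD-Zip protein in some transcripts and as a sugar carrier in others, had 698.43 and 550.52 in the cold, against 142.99 and 123.37 in the control (2.21, adjusted p = 0.000867). The unigene c54255_g2 had 751.40 and 680.91 in the cold, against 166.31 and 127.86 in the control (2.29, adjusted p = 0.000856), and it is annotated as a low temperature-induced bZIP protein in 1 transcript but as a YABBY protein in others. For c62787_g1 and c54255_g2, which gene of the mixed annotation carried the reads was not tested.

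**Figure D4:**
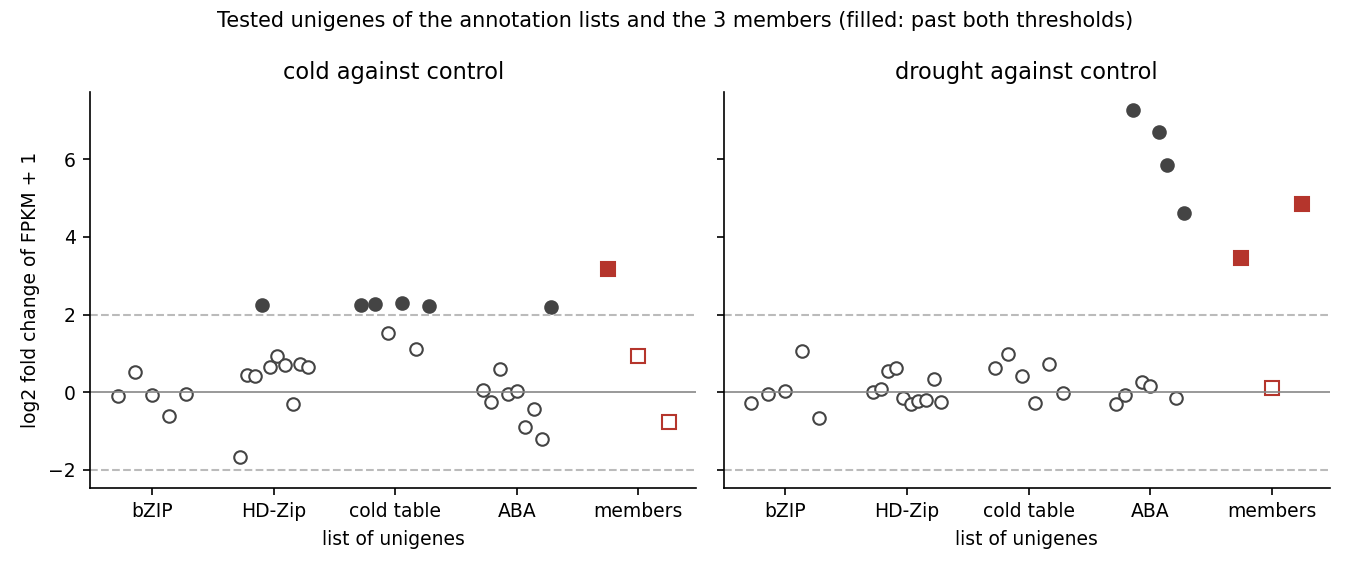
Log2 fold changes of FPKM + 1 in cold against control and drought against control for the tested unigenes of 4 annotation lists (circles) and for c59299_g1, c61581_g3 and c60754_g2 (squares, in that order). Filled symbols passed both thresholds and dashed lines stand at a log2 fold change of 2 in either direction. In the cold, none of the bZIP list and 1 unigene of the HD-Zip list is filled, and in the drought the filled circles are the 4 dehydrin and LEA unigenes.

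The abscisic acid pathway was represented by 13 unigenes, of which 9 were tested. They were annotated as protein phosphatases 2C, some of which restrain the signal, a SnRK2 kinase, of a family with members that transmit it, and dehydrin and late embryogenesis abundant (LEA) proteins. Dehydrin and LEA proteins are among the targets of the signal and are made when cells lose water. Whether the listed phosphatases are of the restraining kind was not tested. In the drought 4 of the 9 rose and none fell, beside 0.725% and 0.0593% of all tested unigenes, and in the cold 1 rose and none fell, beside 2.16% and 1.11%. In cold against drought 4 were called lower and none higher, beside 1.87% and 1.81%. Of the 4 drought risers, c52001_g1 and c52001_g2 passed the filter on FPKM only through their drought libraries. Their mean FPKM was 0.355 and 0.14 under cold, against 1.49 and 0.525 without stress. Their tests, and the counts of 4 set beside all tested unigenes, are therefore not independent of the filter. The other risers, c43682_g1 and c57549_g1, were above an FPKM of 1 in every library. Without the filter the counts were 0 in the drought, 0 in the cold and 1 in cold against drought. No unigene of the whole table was then called in cold or drought against control, so these zeros say nothing particular about this list. The 1 call in the cold was also lost in a separate fit. Omission of any single library also ended the calls of the list in the drought and in the cold. The same held for the whole table in all 6 omissions in the drought and in 5 of 6 in the cold. The 4 that rose in the drought were dehydrin or LEA unigenes, and the other tested LEA unigenes, c153917_g1 (-0.30, adjusted p = 0.862) and c41467_g1 (-0.07, adjusted p = 0.966), were not called. The phosphatase unigene c53335_g5 had a log2 fold change of -1.20 in cold against control (adjusted p = 0.00214), short of the fold threshold. The list covers only the annotation used here and leaves out other phosphatase 2C unigenes that the study names, so it does not describe that family. Here c153917_g1, c41467_g1 and c53335_g5 were named after their values were seen.

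The dehydrin DHN1 unigene c43682_g1 had an FPKM of 28.17 and 17.15 in the cold, 2588.06 and 2133.58 in the drought, and 11.43 and 17.62 in the control libraries. In log2 units the difference from the control was 0.60 for cold (adjusted p = 0.155) and 7.27 for drought (adjusted p = 0.000415). The LEA group 3 unigene c52001_g2 had 0.11 and 0.17 in the cold, 92.54 and 81.29 in the drought, and 0.53 and 0.52 in the control libraries. Against the control it differed by 5.85 in the drought (adjusted p = 0.000315 in limma) and by -0.42 in the cold (adjusted p = 0.110). Its order of groups was that of c60754_g2, and for both unigenes the step from control to cold was not called. Its relative c52001_g1 had 308.41 and 211.78 in the drought against 1 and 1.98 in the control libraries (6.72, adjusted p = 0.000744), and was listed at 0 and 0.71 in the cold. The second dehydrin unigene, c57549_g1, rose in both stresses, as c59299_g1 did: 262.45 and 160.11 in the cold (2.20, adjusted p = 0.00358) and 1330.24 and 917.98 in the drought (4.62, adjusted p = 0.0012), against 46.51 and 41.44 in the control. Unlike c59299_g1, it was called lower in cold than in drought (-2.42, adjusted p = 0.00254).

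Likeness of pattern was measured as the distance between log2(FPKM + 1) values, each centred on its own mean over the 6 libraries, to 14988 tested unigenes whose FPKM averaged at least 10. With 6 libraries in 3 groups, Pearson's r is high for any unigene that separates the same groups, and it is given as a description only. Nearest to c59299_g1 was c55639_g1, an uncharacterized maize protein, with an FPKM of 269.44 and 267.65 in the cold, 413.58 and 306.78 in the drought, and 23.77 and 28.67 in the control libraries (r = 0.992, distance 0.530). The next were c57367_g2 (r = 0.983) and c51372_g1 (r = 0.981), a CBL-interacting protein kinase, of a family that relays calcium signals. The kinase unigene had 71.72 and 76.83 in the cold, 141.67 and 101.23 in the drought, and 7.73 and 12.06 in the control libraries, with drought-1 the highest as in c59299_g1.

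Nearest to c61581_g3 were c61298_g2 (r = 0.979, distance 0.230), c51288_g3 (r = 0.978) and c62516_g2 (r = 0.973). These are distances along a narrow range, and all 3 shared the excess of cold-2 over cold-1. Nearest to c60754_g2 were c48683_g1 (r = 0.992, distance 0.745), c52646_g1 (r = 0.991) and c57291_g2 (r = 0.991). All 3 reached the required mean FPKM only through their drought libraries, so their likeness to c60754_g2 is not independent of that filter. The first of them had an FPKM of 0 and 0.07 in the cold, 36.09 and 40.57 in the drought, and 0.07 and 0.07 in the control libraries, so that, unlike c60754_g2, it was near 0 in cold and control alike. None of these 6 unigenes has a name in the annotation used here.

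**Figure D5:**
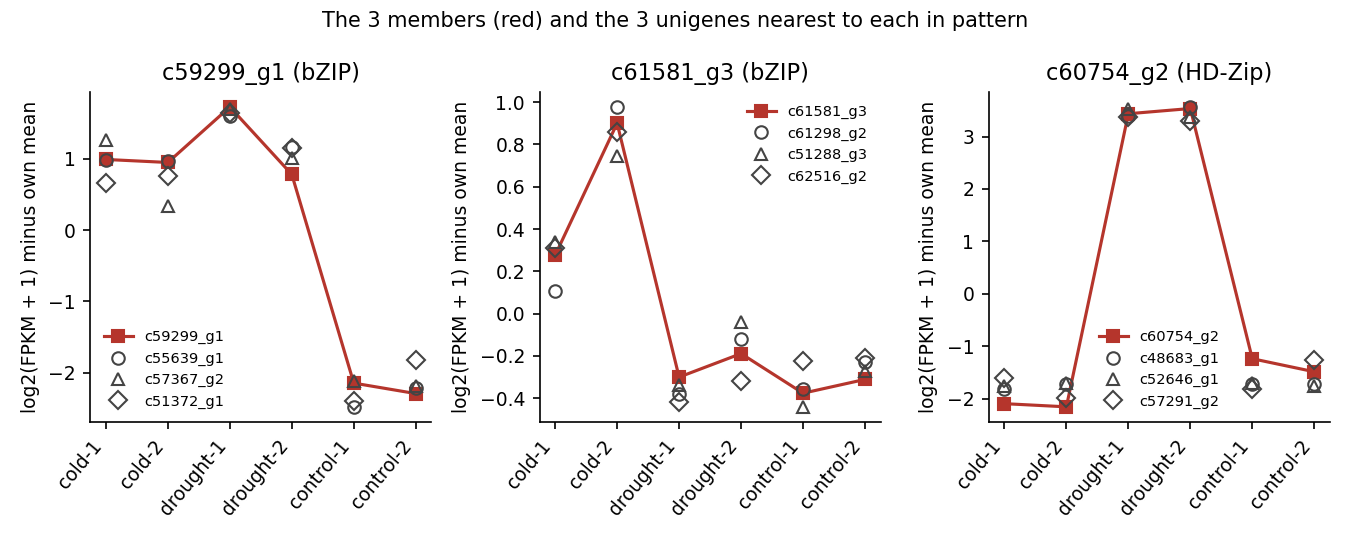
Log2(FPKM + 1) minus its own mean over the 6 libraries for c59299_g1, c61581_g3 and c60754_g2 (red squares, joined by a line to guide the eye) and for the 3 unigenes nearest to each in pattern (open symbols), cold, drought and control libraries from left to right. The vertical scale differs between panels, and the distance of the nearest unigene is 0.530, 0.230 and 0.745 in the order of the panels.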

How the data were processed

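Sequencing was paired-end RNA-seq of 6 libraries. The authors trimmed the reads, assembled them over all samples with Trinity, mapped them to the assembly with Bowtie 1.1.1, and estimated abundance with RSEM. They deposited FPKM values of 184280 unigenes with 2 decimals, scaled to unigene length and mapped fragments of each library. The file holds no counts, so no count model was run, and read totals of the supplement were not used in any fit.

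From the deposited FPKM values, log2(FPKM + 1) of 38768 unigenes whose FPKM averaged at least 1 was fitted over the 6 libraries with limma 3.58.1 in R 4.3.3 (empirical Bayes variance with a trend, 3 residual and 2.86 prior degrees of freedom). Adjusted p covers all tested unigenes of a comparison. An exact permutation test of 2 against 2 libraries cannot go below p = 0.333. The procedure was tested on simulated data. Python 3.11.15 was used for tables. Replicates are described as biological repeats, each a pool of seedlings.

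Named are the 3 unigenes, those of their components, from each annotation list the called unigenes or otherwise the 2 with the largest fold change, and the 3 nearest in pattern. The members and lists were chosen with earlier results of these data known, and the leaf and root annotations were chosen last. Supplementary annotation sheets are held in part. Alternatives were a pseudocount of 0.1, no filter, median-of-ratios scaling, separate fits, a replicate block, a log2 fold threshold of 1, an adjusted p under 0.05 and leaving out each library. The qRT-PCR values were not analysed here.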

Additional observations from a re-analysis of the deposited data

Results flagged for a closer look

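The response of c60754_g2, the HD-Zip unigene matched to ATHB-6, differed between the 2 stresses. Its log2 fold change against the control was -0.76 in the cold, where it was not called, and 4.85 in the drought, where it was. The difference of the 2 responses, cold minus drought, was -5.61 (adjusted p = 0.00016 in limma). Both cold libraries lay below and both drought libraries above both control libraries, as for 43.8% and 27.8% of all tested unigenes. The unigene passed the filter on FPKM only through the drought libraries. Cold lasted 12 h and drought 3 h, and stress and duration cannot be told apart here.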

How the results depend on the processing

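Over 9 comparisons of the 3 unigenes, 116 alternative values were computed, of which 88 kept direction and side of the threshold, 27 kept the direction but missed the threshold, and 1 turned. Part of the 88 was fixed in advance. A comparison not called in the main fit could not gain a call in omissions that left no unigene called. The 2 looser thresholds reuse the values of the main fit and could not end a call. No value could be given for c60754_g2 in cold against control by a separate fit, because its mean FPKM over those 4 libraries is under 1. Without a filter, 176534 unigenes were tested and c59299_g1 in the cold (3.18, adjusted p = 0.0199), c59299_g1 in the drought (3.47, adjusted p = 0.0490) and c60754_g2 in the drought (4.85, adjusted p = 0.00669) were no longer called. The call of c59299_g1 in the drought was also lost with median-of-ratios scaling (3.43, adjusted p = 0.00526) and a separate fit (3.47, adjusted p = 0.0127).

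With the replicate number as a block it was lost too (3.47, adjusted p = 0.00668), and the block ended no other call of the 3 unigenes. The labels share only a number, so no pairing was used in the main fit. The correlation of same-numbered deviations was -0.0322 for control and cold, -0.0113 for control and drought, and 0.0392 for cold and drought. Such correlations over all tested unigenes cannot exclude that samples were handled in pairs.

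Leaving out 1 library, which leaves 2 residual degrees of freedom, gave log2 fold changes of 3.11 to 3.26 for c59299_g1 in the cold, 2.99 to 3.94 in the drought and -0.76 to 0.19 in cold against drought, where the omission of drought replicate 1 turned the sign. For c60754_g2 they were 4.72 to 4.97 in the drought and -5.66 to -5.56 in cold against drought. Such omissions left 0 unigenes of the whole table called in all 6 cases in the drought (585 to 858 higher and 126 to 249 lower past the fold at an unadjusted p under 0.05) and in 5 of 6 in the cold (1261 to 1573 and 638 to 787), the exception being drought replicate 1, with 179 higher and 90 lower. In cold against drought 4 of 6 left 0 (1074 to 1337 and 971 to 1187), and omitting a control library left at most 266 higher and 423 lower. These losses thus say nothing particular about the 3 unigenes. For c61581_g3, not called under any setting, they were 0.62 to 1.24 in the cold.

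Over all unigenes, 838 rose and 432 fell in the cold, 281 and 23 in the drought, and 701 were higher and 726 lower in cold against drought. Without a filter none was called in cold or drought against control (at an unadjusted p under 0.05 and the same fold, 1265 and 627 in the cold, 583 and 127 in the drought), and 3 and 43 in cold against drought. Separate fits gave 406 and 189, 136 and 8, and 374 and 471. The block gave 521 higher in the cold, 158 and 9 in the drought, and 393 higher in cold against drought. A log2 fold threshold of 1 gave 1669 and 1565 in the cold, 68 lower in the drought, and 1438 and 2130. An adjusted p under 0.05 gave 545 and 104 in drought against control. With median-of-ratios scaling the split was 1086 and 299 in the cold and 949 and 529 in cold against drought. The cause of these shifts was not tested.

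In the lists, 0 HD-Zip unigenes were called in the cold without a filter or in a separate fit, against 1. Of the abscisic acid list, 0 were called in the drought without a filter, against 4, and 0 in the cold without a filter or in a separate fit, against 1. On omission of any library, 0 of any list were called in cold or drought against control. Of the study's cold table, 0 were called in the cold without a filter and 2 in a separate fit, against 4. A log2 fold threshold of 1 added 1 bZIP and 1 HD-Zip unigene in cold against drought. The zeros without a filter hold for the whole table and say nothing particular about the lists. The same is true of those on omission of a library, except of drought replicate 1 in the cold.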
